A study of Mus musculus with 11 samples.

Results

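Collagen genes were examined in RNA sequencing of the full colon wall of 11 mice aged 2 weeks, 6 Tnfr1-/- and 5 wild type (WT). The Tnfr1-/- mice lack TNFR1, the receptor of the cytokine TNF that the gene Tnfrsf1a encodes, and the labels name no other allele and no treatment for either genotype. Each library came from a separate mouse, and neither sex, litter nor sequencing batch is stated in the labels. The members are all genes whose symbol has the form of a collagen chain, Col followed by a type number, the letter a and a chain number. The deposited table holds 44 such genes under 45 Ensembl identifiers, with 221 transcripts, out of 35683 genes in all. Col4a6 accounts for the additional identifier, which carries the same values in each library, so it is counted once among the genes, while both enter the class sums. Values are normalised TPM, that is TPM after division by the size factor of the library, summed over the transcripts of a gene. A gene was tested when it reached 1 normalised TPM in at least 5 libraries, which 35 of the 44 collagen genes and 15079 genes in all did.

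Collagens are secreted proteins built of α chains that wind around each other into a triple helix. The fibrillar collagens pack side by side into the fibrils that give the submucosa of the gut its tensile strength, the network collagens of type IV form the sheets under epithelium and around vessels and muscle cells, and the beaded filaments of type VI run close to the surface of many cells. In the gut wall most of this RNA comes from fibroblasts, with smooth muscle, endothelial and glial cells as further sources, and early postnatal life is a time of growth in which this matrix is laid down.

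Tnfrsf1a, the gene that the genotype names, checked the labels, and its RNA was lower but not absent in Tnfr1-/- libraries. Tnfrsf1a had 19.0 normalised TPM in the lowest, 21.1 in the median and 28.0 in the highest Tnfr1-/- library, against 73.1, 70.2, 61.7, 68.3 and 62.0 in WT replicates 1 to 5. It was the single gene of 15079 called between the genotypes, with a log2 fold change of -1.57 (SE 0.10; limma, Benjamini-Hochberg adjusted p = 8.5e-05). The table gives no read totals. The authors' deposited means add up to 35.0 M estimated reads per library. Markers of fibroblasts, smooth muscle, endothelium, epithelium and enteric glia were all present. The 7 epithelial markers summed to 4381 to 6392 normalised TPM in the 6 Tnfr1-/- libraries, against 6863 and 8160 in WT replicates 1 and 2 and 4522 to 4785 in the other 3 WT libraries. Because this is bulk tissue, fewer cells of a type and less RNA per cell cannot be told apart in any value below.

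No collagen gene passed the test of genotype. At an adjusted p under 0.05, 0 of 35 were called, against 0.00663% of all genes tested. At an unadjusted p under 0.05 the count was also 0 of 35, against 9.37% of all genes. In none of the 35 did the 6 Tnfr1-/- libraries lie wholly above or wholly below the 5 WT libraries, which 0.723% and 0.769% of all genes did. The log2 fold change of Tnfr1-/- over WT was above 0 in 25 of 35 (71.4%, against 47.9% of all genes), with a median of 0.08, against -0.01 over all genes. That lean depended on which WT libraries were used. WT replicates 1 and 2 were both below the other WT libraries for 28 of 35 collagens. Without them 7 of 35 were above 0 (47.5% of all genes), with a median of -0.17. WT replicate 4 was the highest library for 25 of 35. Without it 32 of 35 were above 0, with a median of 0.22, against 0.003 over all genes. The 95% interval of the fold change lay within a 2-fold change either way for 33 of 35 collagens (94.3%, against 93.2% of all genes). Within a 1.5-fold change that interval lay for 24 of 35 (68.6%, against 82.3%). Shifts larger than 2-fold are outside the interval for the 33 on the fitted log2 scale only. That scale adds a constant to each value and understates changes of low genes. Larger shifts in the normalised TPM of low genes are therefore not excluded.

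**Figure D1:**
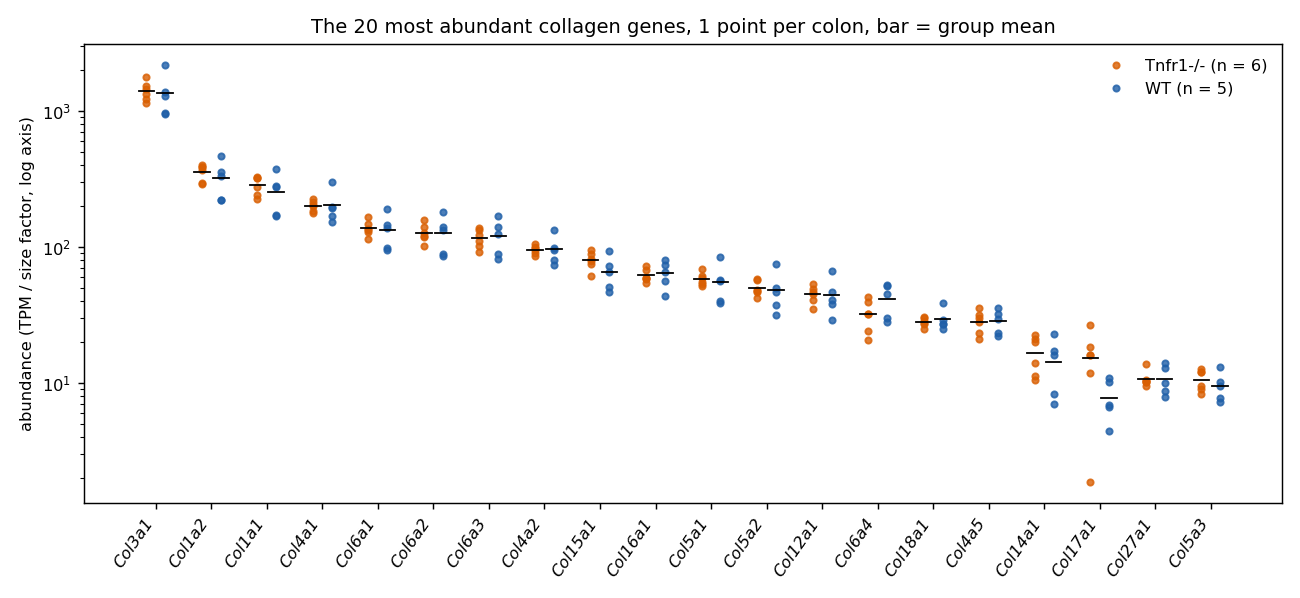
Normalised TPM (log axis) of the 20 collagen genes with the highest mean, each point 1 colon, Tnfr1-/- left in orange and WT right in blue, bars at the group means. Col3a1 stands above the others, with 1137 to 1772 in Tnfr1-/- and 938 to 2167 in WT colons, and the points of the genotypes overlap for all 20 genes.

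Collagen RNA made up 0.323% ± 0.040 of all abundance in Tnfr1-/- colons (SD, n = 6) and 0.307% ± 0.114 in WT colons (SD, n = 5). It ran from 0.270% to 0.382% in Tnfr1-/- and from 0.215% to 0.495% in WT libraries. The fibrillar class held 67.2% of the collagen abundance, the beaded filament class 13.2%, the basement membrane class 10.5%, the fibril-associated (FACIT) class 4.40%, the multiplexins with the anchoring fibril gene Col7a1 3.41%, and the transmembrane class 0.768%. With only the principal transcripts of each gene, those that the annotation ranks first, the shares were 70.5% for the fibrillar, 14.6% for the beaded filament, 11.3% for the basement membrane and 1.19% for the FACIT class, 1.50% for the multiplexins with Col7a1 and 0.444% for the transmembrane class. The principal transcript was not always the one with most estimated reads in the authors' deposited table. Principal transcripts had 19.3 such reads for Col14a1, 117 for Col18a1 and 80.2 for Col17a1. Other transcripts of these genes, in that order 6457, 5063 and 5588 bases long, had 1119, 3621 and 994. The lower shares of their classes therefore also leave out long transcripts. By level, 7 genes averaged at least 100 normalised TPM over the 11 libraries, 13 were between 10 and 100, 15 between 1 and 10, and 9 below 1.

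Type III and type I chains led the fibrillar class. Col3a1, whose chains form the homotrimer of the thin, compliant fibrils of gut and vessels (chromosome 1, 45311538 to 45349706, GRCm38), had 1137, 1377 and 1772 normalised TPM in the lowest, median and highest Tnfr1-/- library, against 957, 938, 1287, 2167 and 1363 in WT replicates 1 to 5. Its group means were 1402 ± 230 in Tnfr1-/- (SD, n = 6) and 1342 ± 499 in WT (SD, n = 5), a log2 fold change of 0.12 (SE 0.20; limma adjusted p = 0.898). WT replicate 4 was above and WT replicates 1 and 2 were below all Tnfr1-/- libraries, so the WT group enclosed the Tnfr1-/- group.

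The chains of type I collagen, the main load-bearing fibril, followed a like order of libraries. Col1a2 (chromosome 6) had 286, 376 and 398 normalised TPM in the lowest, median and highest Tnfr1-/- library, against 222, 219, 333, 465 and 356 in WT replicates 1 to 5. Col1a1 (chromosome 11) had 224, 295 and 324 in the lowest, median and highest Tnfr1-/- library, against 168, 171, 274, 373 and 281 in WT replicates 1 to 5. For both genes WT replicates 1 and 2 lay below and WT replicate 4 above every Tnfr1-/- library. The log2 fold change was 0.19 for Col1a2 (SE 0.19; limma adjusted p = 0.783) and 0.21 for Col1a1 (SE 0.21; limma adjusted p = 0.775).

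The minor fibrillar chains were far lower. Col5a1 and Col5a2, which start and limit the width of type I fibrils, averaged 57.8 ± 6.30 and 49.6 ± 6.28 normalised TPM in Tnfr1-/- (SD, n = 6), and 55.1 ± 18.3 and 47.7 ± 16.5 in WT (SD, n = 5). Col27a1 and Col5a3 stood near 10, and the chains that cartilage uses, Col11a1 and Col11a2, averaged 2.29 and 1.39 in Tnfr1-/- against 1.93 and 0.889 in WT. Col2a1, the main cartilage collagen, did not exceed 0.173 in any library. All 10 tested fibrillar genes had a fold change above 0, against 47.9% of all genes, and none passed the test. For 8 of these 10 the fold change was below 0 without WT replicates 1 and 2. Col11a2 had the second smallest p of all collagens, with a log2 fold change of 0.42 (SE 0.24; limma adjusted p = 0.622). Its lowest, median and highest Tnfr1-/- libraries had 0.808, 1.10 and 2.49 normalised TPM, against 0.658, 0.483, 0.972, 1.13 and 1.20 in WT replicates 1 to 5.

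The promoters of Col1a2 and Col3a1 are printed because these are the most abundant chains of the colon and their RNA moved together over the libraries. They are from RefSeq on GRCm38.p6 and read 5′ to 3′ along the gene. The first runs from 248 to 126 bases before the start of Col1a2 (chr6:4505370-4505492, plus strand), and the rest of its window lies in exons of the GENCODE annotation and is not shown. The second covers the 250 bases before the start of Col3a1 (chr1:45311288-45311537, plus strand). Capitals mark matches to the 3 motifs searched on both strands. The first motif is the CCAAT box, which reads as ATTGG where it lies on the other strand. The core of the TATA box was searched as TATAA and, for the other strand, with the letters TTATA. The GC box was searched as GGGCGG and, for the other strand, with the letters CCGCCC.
Col1a2: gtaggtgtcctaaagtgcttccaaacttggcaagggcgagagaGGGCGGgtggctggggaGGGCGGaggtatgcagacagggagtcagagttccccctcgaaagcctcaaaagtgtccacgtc
Col3a1: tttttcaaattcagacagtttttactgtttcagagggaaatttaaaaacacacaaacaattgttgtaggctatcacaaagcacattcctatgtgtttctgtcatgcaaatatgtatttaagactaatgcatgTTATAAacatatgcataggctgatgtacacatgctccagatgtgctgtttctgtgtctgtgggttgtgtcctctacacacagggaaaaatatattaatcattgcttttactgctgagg
The stretch of Col1a2 holds a GC box at 205 and another at 188 bases before the start, and that of Col3a1 holds overlapping TTATA and TATAA matches at 118 and 117 bases. Over the RefSeq windows of 35 collagen genes the GC box was found in 21 (60.0%), the CCAAT box in 12 (34.3%) and the TATA core in 7 (20.0%). Among 27025 promoters of the same length the shares were 32.9%, 34.5% and 23.5%.

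Type IV chains led the basement membrane class. Col4a1 and Col4a2, the pair found in nearly all basement membranes, lie head to head on chromosome 8, where their annotated 5′ ends overlap by 22 bases. Col4a1 had 176, 200.5 and 225 normalised TPM in the lowest, median and highest Tnfr1-/- library, against 168, 151, 195, 299 and 193 in WT replicates 1 to 5. Col4a2 had 86.0, 96.0 and 104 in the lowest, median and highest Tnfr1-/- library, against 79.9, 72.8, 95.1, 134 and 97.0 in WT replicates 1 to 5. The Tnfr1-/- libraries sat inside the WT range for both genes, with log2 fold changes of 0.02 (SE 0.15; limma adjusted p = 0.977) and 0.02 (SE 0.13; limma adjusted p = 0.978).

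The other network chains were less abundant. Col4a5, which with Col4a6 serves basement membranes of smooth muscle and lies beside it on chromosome X with 1308 bases between them, had 21.1, 28.9 and 35.6 normalised TPM in the lowest, median and highest Tnfr1-/- library. In WT replicates 1 to 5 it had 23.1, 22.0, 29.6, 35.6 and 31.9, which overlapped throughout (log2 fold change -0.01, SE 0.16; limma adjusted p = 0.986). Col4a6 averaged 3.58 ± 0.684 in Tnfr1-/- (SD, n = 6) and 3.33 ± 0.951 in WT (SD, n = 5). Col4a3 and Col4a4, partners in the glomerular basement membrane of the kidney, stayed below 1 in each library.

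Type VI chains made up the beaded filament class. Col6a1 had 114, 133 and 165 normalised TPM in the lowest, median and highest Tnfr1-/- library, against 94.4, 98.2, 136, 188 and 144 in WT replicates 1 to 5. Col6a2 had 102, 123 and 156 in the lowest, median and highest Tnfr1-/- library, against 85.6, 88.7, 133, 181 and 138 in WT replicates 1 to 5. Col6a3, the longest of these chains, had 91.7, 116 and 138 in the lowest, median and highest Tnfr1-/- library, against 88.7, 80.8, 140, 169 and 123 in WT replicates 1 to 5. WT replicates 1 and 2 were again below all Tnfr1-/- libraries and WT replicate 4 above them, joined by WT replicate 3 for Col6a3. The log2 fold changes were 0.08 (SE 0.17; limma adjusted p = 0.918), 0.06 (SE 0.19; limma adjusted p = 0.953) and -0.01 (SE 0.19; limma adjusted p = 0.988) for Col6a1, Col6a2 and Col6a3.

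Col6a4, an alternative to Col6a3, had another order of libraries. It had 20.5, 31.9 and 42.9 normalised TPM in the lowest, median and highest Tnfr1-/- library, against 29.8, 28.2, 51.3, 44.9 and 52.0 in WT replicates 1 to 5, a log2 fold change of -0.37 (SE 0.23; limma adjusted p = 0.646). WT replicates 3, 4 and 5 were above all Tnfr1-/- libraries, and WT replicates 1 and 2 were inside their range. Only 23.8% of Col6a4 abundance lay in protein-coding transcripts of the annotation. Col6a5 and Col6a6 averaged below 1 and were not tested. The highest Col6a6 value, 1.50, was in Tnfr1-/- replicate 2.

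Among the remaining classes Col15a1 and Col16a1 were the most abundant by the sum over transcripts. Col15a1, a multiplexin of the zone between basement membranes and fibrils, had the smallest p of all collagens. Its lowest, median and highest Tnfr1-/- libraries had 60.7, 79.9 and 94.9 normalised TPM, against 46.4, 50.2, 65.4, 92.5 and 71.6 in WT replicates 1 to 5. Only WT replicates 1 and 2 lay below the Tnfr1-/- range, and the log2 fold change was 0.32 (SE 0.17, 95% interval -0.06 to 0.69; limma adjusted p = 0.606). Without WT replicates 1 and 2 the log2 fold change of Col15a1 was 0.06. Col18a1, the multiplexin whose C-terminal fragment is endostatin, averaged 28.0 ± 2.19 in Tnfr1-/- (SD, n = 6) and 29.2 ± 5.36 in WT (SD, n = 5), and its coefficient of variation over the 11 libraries, 13.2%, was the lowest of the 35 tested collagens.

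The FACIT collagens attach to the surface of fibrils. Col16a1, the highest of the class by the sum over transcripts, had 53.7, 58.7 and 71.7 normalised TPM in the lowest, median and highest Tnfr1-/- library, against 56.1, 43.6, 73.5, 79.5 and 65.3 in WT replicates 1 to 5 (log2 fold change -0.02, SE 0.14; limma adjusted p = 0.977). Those ranges overlapped for most of their length. By principal transcripts alone Col12a1 was above Col16a1, at 10.5 against 6.18 over the 11 libraries. Col12a1 averaged 44.7 ± 6.53 in Tnfr1-/- (SD, n = 6) and 44.0 ± 13.7 in WT (SD, n = 5). Col14a1 averaged 16.4 ± 5.24 in Tnfr1-/- (SD, n = 6) and 14.2 ± 6.55 in WT (SD, n = 5), with its lowest values, 6.95 and 8.27, in WT replicates 1 and 2. Col9a2 and Col9a3, best known from the surface of cartilage fibrils, averaged 6.28 and 1.15 in Tnfr1-/- against 7.15 and 1.07 in WT. Col22a1, a collagen of muscle-tendon junctions, averaged below 1 and was highest, at 2.09, in Tnfr1-/- replicate 2.

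The short chain collagen Col8a1, known from vessel walls and the cornea, had 6.28, 6.62 and 7.71 normalised TPM in the lowest, median and highest Tnfr1-/- library, against 6.69, 4.74, 5.84, 11.2 and 4.28 in WT replicates 1 to 5. The WT libraries enclosed the Tnfr1-/- libraries here as well (log2 fold change 0.11, SE 0.19; limma adjusted p = 0.902). Col10a1, a marker of hypertrophic cartilage, did not exceed 0.155. Of the transmembrane collagens other than Col17a1, Col23a1 averaged 7.14 in Tnfr1-/- and 7.39 in WT, Col13a1 3.46 in Tnfr1-/- and 3.56 in WT, and Col25a1, which motor axons of the mouse need to innervate muscle, 1.48 in Tnfr1-/- and 1.82 in WT. The unclassed Col26a1 had 1.97, 2.99 and 4.42 in the lowest, median and highest Tnfr1-/- library, against 1.81, 2.66, 3.23, 5.57 and 3.07 in WT replicates 1 to 5 (limma adjusted p = 0.997). Its Tnfr1-/- range lay inside the WT range.

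Col17a1 and Col7a1 varied more over the libraries than any other tested collagen, by 14.3-fold and 11.3-fold between the lowest and the highest. Col17a1 encodes a transmembrane collagen of the hemidesmosomes that hold stratified epithelium to its basement membrane, and Col7a1 the chain of the anchoring fibrils beneath them. Col17a1 had 1.85, 15.9 and 26.5 normalised TPM in the lowest, median and highest Tnfr1-/- library, against 4.38, 10.7, 10.2, 6.82 and 6.67 in WT replicates 1 to 5. By this sum over transcripts, Tnfr1-/- replicate 5 was the lowest of all 11 libraries and the other 5 Tnfr1-/- libraries were above every WT library (log2 fold change 0.67, SE 0.53; limma adjusted p = 0.730). Col7a1 had 1.14, 7.21 and 12.9 in the lowest, median and highest Tnfr1-/- library, against 4.17, 3.45, 4.86, 3.54 and 4.22 in WT replicates 1 to 5. Its order was the same, with Tnfr1-/- replicate 5 below and the other 5 Tnfr1-/- libraries above all WT libraries (log2 fold change 0.49, SE 0.43; limma adjusted p = 0.753). Of the Col7a1 sum, 54.1% lay in a transcript absent from the GENCODE annotation, with 23.2 estimated reads in the authors' deposited table. Its principal transcripts had 252 such reads and kept this order over a narrower, 7.06-fold range. They had 0.604 in Tnfr1-/- replicate 5, 1.43 to 4.26 in the other 5 Tnfr1-/- libraries and 0.810 to 1.40 in WT.

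Summed markers of squamous epithelium, the keratins Krt5, Krt14, Krt1 and Krt10 with Krtdap and Sbsn, followed the same libraries. All 6 were detected, with a sum of 328 normalised TPM in Tnfr1-/- replicate 5, 1106 to 1901 in the other 5 Tnfr1-/- libraries and 675 to 997 in the WT libraries. Over the 11 libraries Col17a1 had a Pearson r of 0.96 and a Spearman rho of 0.96 with that sum (permutation p = 2e-05 and 4e-05, adjusted p = 4e-05 and 0.00014). Col7a1 had an r of 0.92 and a rho of 0.88 (permutation p = 0.00016 and 0.00082, adjusted p = 0.00025 and 0.0014). Without Tnfr1-/- replicates 5 and 6, the libraries farthest from the median sum, the r was 0.94 for Col17a1 and 0.88 for Col7a1. These are 2 of 14 relations tested, and those with markers were chosen after the values were seen. The part of the squamous tissue in the spread of either gene was not tested.

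**Figure D2:**
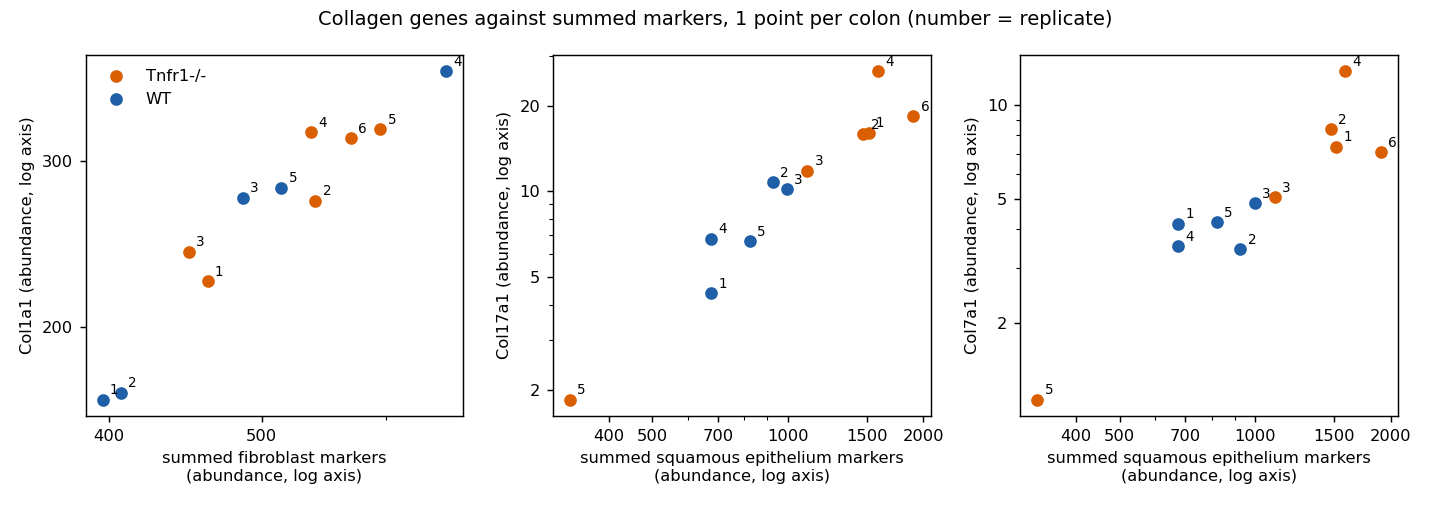
Normalised TPM of Col1a1, Col17a1 and Col7a1 against the summed markers named on each horizontal axis (all axes log), 1 point per colon numbered by replicate, Tnfr1-/- in orange and WT in blue. Col1a1 climbs with fibroblast markers from WT replicates 1 and 2 to WT replicate 4, and Col17a1 and Col7a1 are lowest in Tnfr1-/- replicate 5, where squamous markers sum to 328.

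The promoters of these genes are shown because their RNA followed the same libraries. They are from RefSeq on GRCm38.p6, with the same motifs in capitals. The first runs from 250 to 53 bases before the start of Col17a1 (chr19:47692095-47692292, minus strand), outside its annotated exons. The second covers the 250 bases before the start of Col7a1 (chr9:108953336-108953585, plus strand).
Col17a1: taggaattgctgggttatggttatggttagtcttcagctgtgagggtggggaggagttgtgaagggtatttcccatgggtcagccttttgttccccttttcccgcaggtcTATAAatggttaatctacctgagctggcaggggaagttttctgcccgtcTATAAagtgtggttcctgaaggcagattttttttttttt
Col7a1: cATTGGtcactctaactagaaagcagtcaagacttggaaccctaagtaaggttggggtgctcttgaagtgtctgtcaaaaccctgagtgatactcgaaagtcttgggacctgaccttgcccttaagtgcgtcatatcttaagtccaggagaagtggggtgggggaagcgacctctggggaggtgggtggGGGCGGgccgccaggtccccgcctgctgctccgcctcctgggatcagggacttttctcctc
The Col17a1 stretch holds TATAA at 140 and at 91 bases before the start. The Col7a1 stretch holds ATTGG, the CCAAT box on the other strand, at 249 bases and a GC box at 61 bases. None of the 3 motifs was found in both stretches.

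Most collagens were highest or lowest in the same few WT colons. The highest library was Tnfr1-/- for 8 and WT for 27 of 35, and the lowest was Tnfr1-/- for 7 and WT for 28. The summed collagens had an SD of 410 normalised TPM in Tnfr1-/- (n = 6) and 995 in WT (n = 5), a difference in spread that was not tested. The median standard deviation of log2 values over the 11 libraries was 0.32 for the 35 tested collagens, against 0.17 for all genes tested. WT replicate 4 was the highest library for 25 of 35 collagens (71.4%, against 15.0% of all genes). WT replicate 1 or 2 was the lowest for 26 of 35 (74.3%, against 30.0%). Both of these libraries were below the other 3 WT libraries for 28 of 35 (80.0%, against 25.8%). Tnfr1-/- replicate 2 was the highest for 4 of 35, Col11a1, Col11a2, Col28a1 and Col9a3, a share at the background (11.4%, against 11.3% of all genes). By principal transcripts alone Col28a1 was highest in WT replicate 4 (3.24, against 2.55 in Tnfr1-/- replicate 2). Col9a3 was then highest in Tnfr1-/- replicate 4 (1.17, against 0.893 in Tnfr1-/- replicate 2). In Tnfr1-/- replicate 2 summed skeletal muscle markers reached 8118 normalised TPM, against 541 to 2610 in the other Tnfr1-/- libraries and 411 to 1735 in WT.

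**Figure D3:**
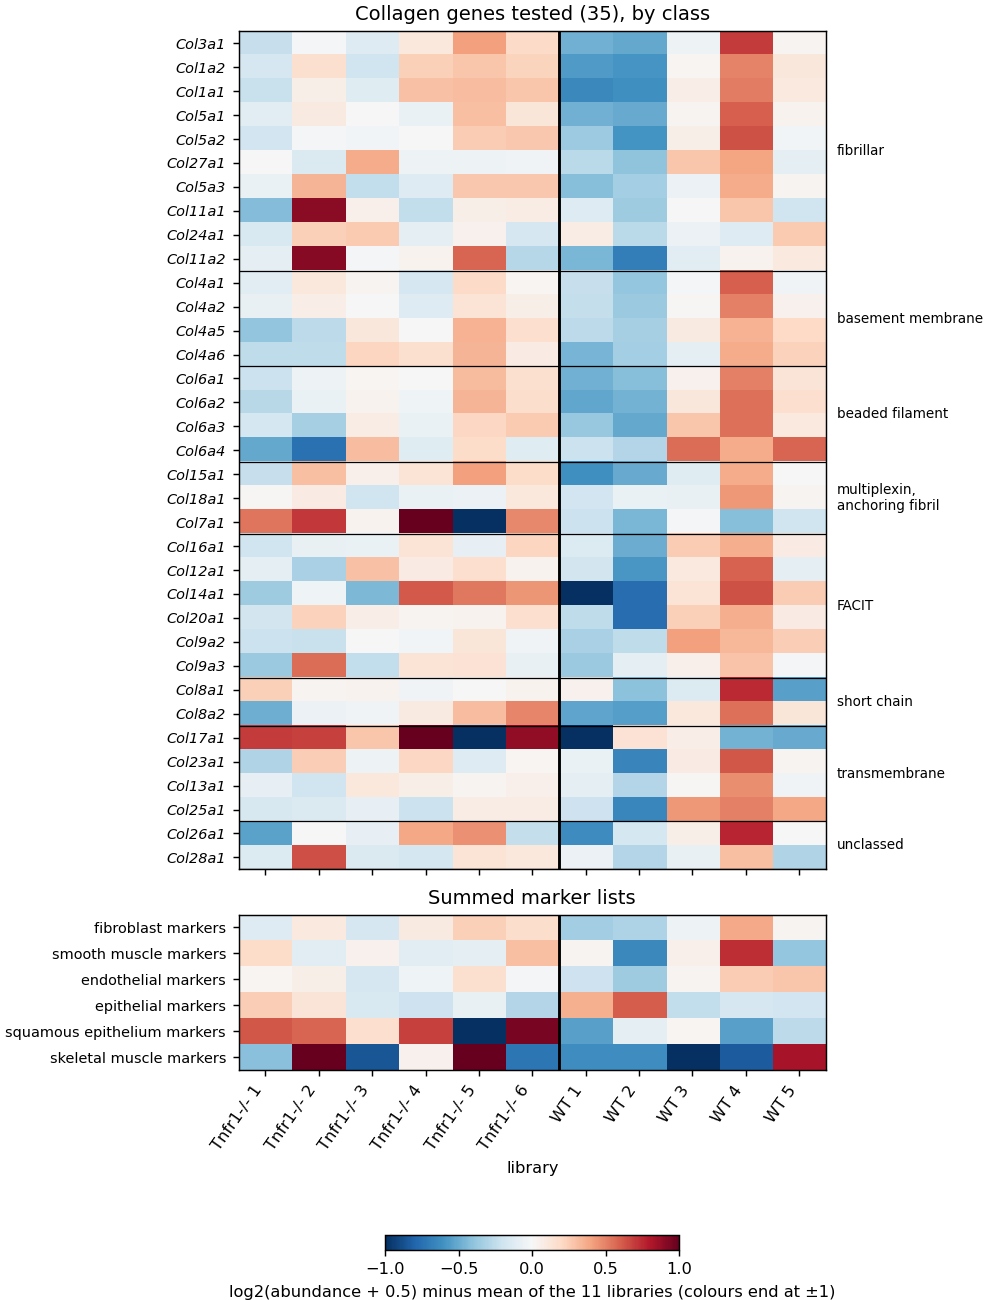
Each row is a tested collagen gene, ordered by class, or a summed marker list, each column a library with Tnfr1-/- left of the line and WT right of it, and colours give log2(abundance + 0.5) minus the mean of the 11 libraries. WT replicate 4 is red and WT replicates 1 and 2 are blue in most rows, while Col17a1 and Col7a1 follow the row of squamous markers.

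Chains that assemble into one trimer or fibril moved together from mouse to mouse. Over the 11 libraries Col1a1 had a Pearson r of 0.99 with Col1a2 and 0.94 with Col3a1, Col4a1 of 0.99 with Col4a2, Col5a1 of 0.96 with Col5a2, and Col6a1 of 0.996 with Col6a2 and 0.91 with Col6a3. The Spearman rho of the 6 pairs ran from 0.87 to 1.0, and the adjusted permutation p from 2.3e-05 to 0.00024 for r and from 0.00014 to 0.0015 for rho. The smallest p that 100000 resamples can give is 1e-05. Without the 2 libraries farthest from the median, WT replicates 1, 2 or 4 in each case, r stayed between 0.85 and 0.99. Taken as deviations from the genotype means, r was 0.92 to 0.998. Some chains that share no trimer had r as high: Col1a1 had 0.97 with Col14a1 and 0.94 with Col6a1, and Col4a1 had 0.95 with Col5a1. Other collagens did not follow, with an r of 0.03 for Col1a1 with Col7a1 and 0.04 with Col24a1. Whether partner chains were closer than other pairs of genes was not tested.

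Summed fibroblast markers moved with Col1a1. All 9 markers were detected, and their sum ran from 450 to 595 normalised TPM in Tnfr1-/- and from 396 to 655 in WT libraries, lowest in WT replicate 1 and highest in WT replicate 4. Col1a1 had an r of 0.96 and a rho of 0.92 with it (adjusted permutation p = 2.3e-05 and 0.00036), and an r of 0.93 without WT replicates 1 and 4. With summed epithelial markers Col1a1 had an r of -0.84 and a rho of -0.66 (adjusted permutation p = 0.0024 and 0.039). That relation rested on WT replicates 1 and 2: without them r was -0.55 and its permutation p no longer passed.

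Col4a1 had an r of 0.74 and a rho of 0.66 with the 7 endothelial markers, which summed to 95.1 to 120 normalised TPM in Tnfr1-/- and 83.7 to 130 in WT libraries (adjusted permutation p = 0.011 and 0.039), and an r of 0.82 without the 2 farthest libraries, WT replicates 2 and 5. Without WT replicates 1 and 2 its r was 0.54 and no longer passed (permutation p = 0.133). With summed smooth muscle markers, 6654 to 8896 normalised TPM over the Tnfr1-/- libraries and 4624 to 12054 over the WT libraries, its r of 0.74 rested on WT replicates 2 and 4 and was -0.11 without them (rho 0.43, adjusted permutation p = 0.018 for r and 0.23 for rho). Col22a1 had an r of 0.76 with skeletal muscle markers (adjusted permutation p = 0.012) but a rho of 0.33 (adjusted permutation p = 0.35) and an r of 0.50 without Tnfr1-/- replicates 2 and 5. Col11a1 had an r of 0.60 with them and -0.45 without these 2 libraries, and its adjusted permutation p was 0.066. The 8 cartilage and bone markers summed to 7.30 to 15.4 in Tnfr1-/- and 10.1 to 18.6 in WT libraries, and the cartilage matrilins Matn1 and Matn3 were at or near 0. The part of cell composition in the collagen differences between mice was not tested.

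The ratios of chains that share a trimer varied less than their levels. Over the 11 libraries Col1a1 over Col1a2 averaged 0.797 with a coefficient of variation of 4.25%, Col6a1 over Col6a2 averaged 1.07 with 3.02%, and Col4a1 over Col4a2 averaged 2.09 with 3.58%. Col5a1 over Col5a2 varied by 6.02% and Col6a3 over Col6a1 by 9.33%, and the levels of these 9 chains by 16.3% to 24%. With principal transcripts Col4a1 over Col4a2 varied by 7.44%. The ratio of Col3a1 to Col1a1 averaged 4.96 ± 0.339 in Tnfr1-/- (SD, n = 6) and 5.31 ± 0.507 in WT (SD, n = 5), with an exact permutation p of 0.203, two-sided over all splits into 6 and 5. No ratio of the 6 passed the test of genotype, with exact permutation p between 0.203 and 0.909 and adjusted p between 0.736 and 0.909, where the smallest p this design allows is 0.0022. Without WT replicates 1 and 2 the log2 ratio of Col6a1 over Col6a2 was higher in Tnfr1-/- by 0.06 at an unadjusted exact permutation p of 0.0238, which over the 6 ratios did not pass (adjusted p = 0.143).

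Several of these levels depended on which transcripts were counted, since a gene sum of a per-length unit gives short transcripts full weight. For Col3a1 the principal transcript of 5564 bases held 54.1% of the gene sum, a transcript of 737 bases held 38.6%, and a retained-intron transcript of 431 bases 7.35%. In the authors' deposited table the same transcripts had 111609, 7986 and 616 estimated reads, so most of its estimated reads fell to the full-length form. For Col6a3 a retained-intron transcript of 646 bases held 66.9% and the principal transcript 32.0%, although their reads in the authors' deposited table were 993 and 9323. The principal transcript held 59.8% of Col4a1, 23.5% of Col12a1 and 9.94% of Col16a1, against 99.9% of Col1a1.

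With principal transcripts alone, a choice made after the data were seen, Col3a1 over Col1a1 averaged 2.76 instead of 5.12, Col4a1 over Col4a2 1.25 instead of 2.09, and Col6a3 over Col6a1 0.279 instead of 0.876. Col1a1 over Col1a2 (0.803), Col5a1 over Col5a2 (0.949) and Col6a1 over Col6a2 (1.14) moved by less than 1.5 times. Col3a1 remained the most abundant collagen at 740 normalised TPM, ahead of Col1a2 at 334 and Col1a1 at 269. No ratio passed the test of genotype on this scale either, with adjusted exact permutation p from 0.669 to 0.697, and the pairs kept an r of 0.90 to 0.99.

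**Figure D4:**
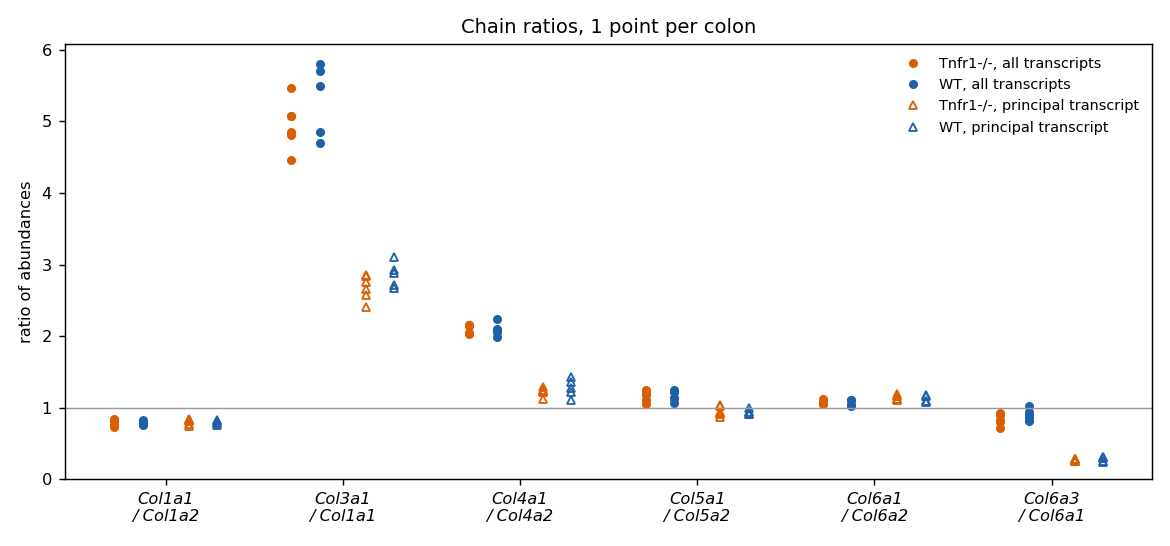
Ratio of the abundances of 6 pairs of collagen chains, 1 point per colon, Tnfr1-/- left in orange and WT right in blue, filled circles for all transcripts summed and open triangles for principal transcripts. The genotypes overlap in each pair, and the ratio of Col3a1 to Col1a1 averages 5.12 over all transcripts and 2.76 over principal ones.

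Single transcripts gave the same picture of genotype. The log2 fold change was above 0 for 47 of 65 collagen transcripts tested (72.3%, against 50.7% of all). Of the 65, 0 were called at an adjusted p under 0.05 (0.00902% of all 33276 transcripts tested) and 1 had an unadjusted limma p under 0.05 (8.26% of all). It was a 345-base processed transcript of Col15a1, which has a mean of 37.0 estimated reads in the authors' deposited table, with 12.4 ± 3.68 normalised TPM in Tnfr1-/- (SD, n = 6) and 6.76 ± 3.72 in WT (SD, n = 5), a log2 fold change of 0.88 (limma adjusted p = 0.525). The full-length principal transcript of Col15a1 averaged 30.3 ± 4.76 in Tnfr1-/- (SD, n = 6) and 26.0 ± 8.58 in WT (SD, n = 5), with a limma adjusted p of 0.746. The authors' deposited table has its own test for 107 collagen transcripts, of which 0 had q below 0.05 and 1 had p below 0.05, a Col4a4 transcript (p = 0.00857, q = 0.962). Over all 49778 transcripts of the authors' deposited table with a p, 1 had q below 0.05 and 4.39% had p below 0.05.

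**Figure D5:**
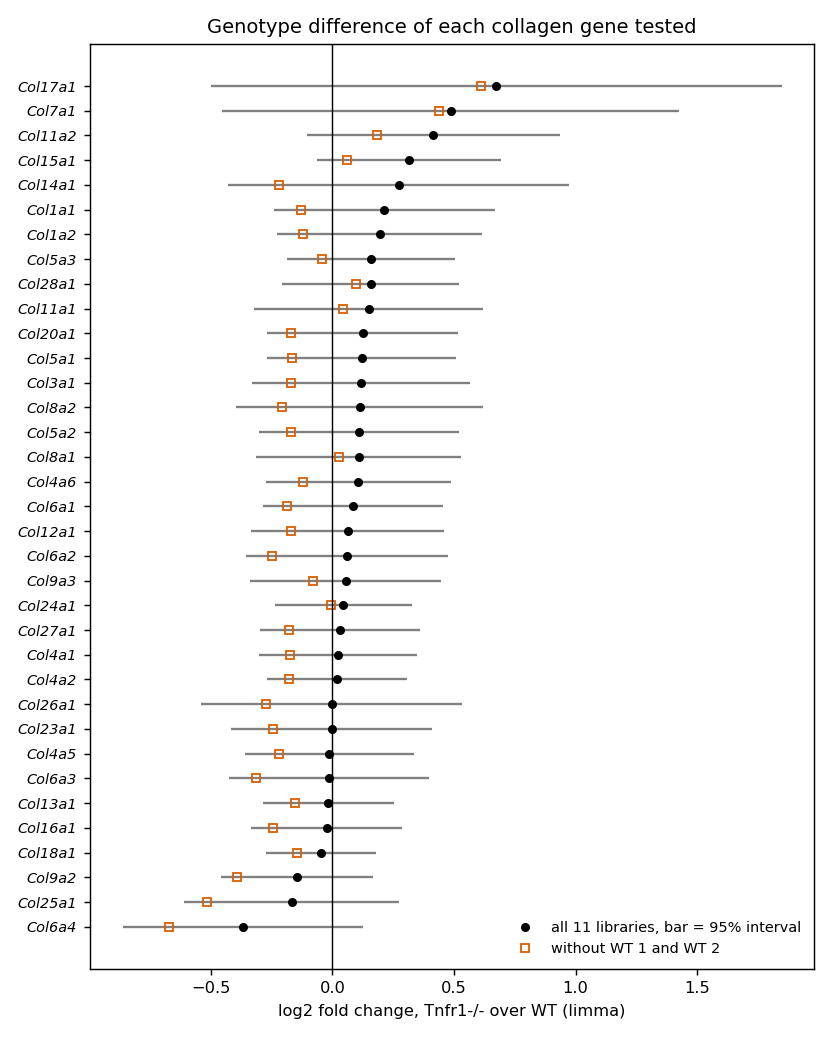
Log2 fold change of Tnfr1-/- over WT for the 35 tested collagen genes (limma), black points with 95% intervals for all 11 libraries and open squares without WT replicates 1 and 2. All 35 intervals cross 0, and 7 of the 35 squares lie above 0.

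Leaving out WT replicates 1 and 2 took the collagens with a fold change above 0 from 25 to 7 of 35. The log2 fold change was then -0.17 for Col3a1, -0.13 for Col1a1, -0.17 for Col4a1 and -0.19 for Col6a1. It was -0.67 for Col6a4, which was below 0 with all libraries too (-0.37). Of the 35 genes, 4 had an unadjusted limma p under 0.05, Col6a4, Col16a1, Col25a1 and Col9a2, all lower in Tnfr1-/-. Lower in Tnfr1-/- at that p were 11.4% of the collagens, against 10.3% of all genes. In both directions together, 4 of 35 collagens and 2455 of 14923 genes tested had such a p. At an adjusted p under 0.05, 0 were called (0.0067% of all genes), and the smallest adjusted limma p was 0.138. These 4 were found after the values were seen. Col17a1 and Col7a1 kept their direction, at 0.61 and 0.44.

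The enzymes and partners of collagen were examined as 7 lists, and none of their members was called. Their medians below stand against -0.01 over all genes tested, of which 47.9% were above 0. Of 16 prolyl and lysyl modification genes, which hydroxylate and glycosylate the chains in the endoplasmic reticulum, 9 had a log2 fold change above 0 and 7 below, with a median of 0.01. P4hb, the β subunit of prolyl 4-hydroxylase, averaged 512 ± 24.6 normalised TPM in Tnfr1-/- (SD, n = 6) and 544 ± 52.4 in WT (SD, n = 5). Its catalytic subunit P4ha1 averaged 19.4 ± 3.32 in Tnfr1-/- (SD, n = 6) and 16.2 ± 2.49 in WT (SD, n = 5), with a log2 fold change of 0.25 and the smallest adjusted limma p of that list, 0.579. Ppib, the cyclophilin of the 3-hydroxylation complex, had a log2 fold change of -0.06 (limma adjusted p = 0.648).

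Of 8 folding and export genes 5 lay above and 3 below 0, with a median log2 fold change of 0.01. Sec13, a coat protein of the vesicles that leave the endoplasmic reticulum, was the only 1 of these 8 with an unadjusted limma p under 0.05, against 9.37% of all genes. It had a limma adjusted p of 0.519, at 97.8 ± 3.89 normalised TPM in Tnfr1-/- (SD, n = 6) and 106 ± 6.77 in WT (SD, n = 5). Sec23a, another subunit of that coat, averaged 31.3 in Tnfr1-/- and 32.2 in WT. Sparc, a collagen-binding matrix protein, averaged 812 ± 95.7 in Tnfr1-/- (SD, n = 6) and 777 ± 211 in WT (SD, n = 5). Of 10 tested genes of 14 for propeptide cleavage and crosslinking, 6 were above and 4 below 0, with a median of 0.02. Among them the N-proteinase Adamts2 averaged 9.40 in Tnfr1-/- and 8.32 in WT, its relative Adamts14 1.41 in Tnfr1-/- and 1.32 in WT, the C-proteinase Bmp1 28.2 in Tnfr1-/- and 25.4 in WT, and its enhancer Pcolce 68.1 in Tnfr1-/- and 69.5 in WT.

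Fibril-binding proteoglycans had 5 of 7 tested genes above 0, with a median log2 fold change of 0.05. Decorin (Dcn), which coats fibrils, averaged 251 ± 57.8 normalised TPM in Tnfr1-/- (SD, n = 6) and 229 ± 79.1 in WT (SD, n = 5), Prelp 15.6 in Tnfr1-/- and 14.5 in WT, and Fmod 4.37 in Tnfr1-/- and 2.87 in WT. Collagen receptors had 4 of 7 tested genes above 0, with a median of 0.01. Itga2, the integrin chain that binds type I collagen and is borne by epithelium and platelets, had the smallest p of the 7 lists, with 10.5 ± 1.50 in Tnfr1-/- (SD, n = 6) and 12.8 ± 1.07 in WT (SD, n = 5), a log2 fold change of -0.28 (limma adjusted p = 0.433). Its partner Itgb1 averaged 229 in both genotypes, and the receptor kinases Ddr1 and Ddr2 averaged 54.9 and 13.5 in Tnfr1-/- against 53.2 and 12.5 in WT.

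Basement membrane partners had 13 of 15 tested genes above 0, with a median log2 fold change of 0.05. None had an unadjusted limma p under 0.05, against 9.37% of all genes. Of the 15, 6 were above 0 without WT replicates 1 and 2. Perlecan (Hspg2) averaged 86.5 ± 7.12 normalised TPM in Tnfr1-/- (SD, n = 6) and 85.3 ± 18.5 in WT (SD, n = 5). The laminin chains Lama3, Lamb2 and Lama2 averaged 25.3, 28.8 and 12.7 in Tnfr1-/- against 22.5, 25.9 and 11.4 in WT. Of the profibrotic regulators, 9 of 13 tested genes were above 0, with a median of 0.02. Periostin (Postn), a matricellular protein that binds collagen, averaged 558 ± 81.8 in Tnfr1-/- (SD, n = 6) and 536 ± 137 in WT (SD, n = 5), and the cytokine gene Tgfb3 8.48 in Tnfr1-/- and 7.31 in WT. Cyr61 and Ctgf, matricellular genes that stretch and growth factors induce, averaged 10.6 ± 2.05 and 17.3 ± 2.10 in Tnfr1-/- (SD, n = 6), and 17.6 ± 9.04 and 23.0 ± 9.16 in WT (SD, n = 5), with limma adjusted p of 0.593 and 0.724. Without WT replicates 1 and 2 the fold change turned sign for 11 of the 25 genes named from the 7 lists, among them Sparc, Dcn, Hspg2 and Postn. The other lists then had fewer genes above 0 as well, against 47.5% of all genes. These were 2 of 16 prolyl and lysyl modification, 3 of 8 folding and export and 0 of 10 processing and crosslinking genes. They were 2 of 7 proteoglycans, 1 of 7 receptors and 0 of the 12 profibrotic regulators refitted.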

How the data were processed

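Per the labels, stranded mRNA libraries gave single-end reads of 75 bases. Tools in the submitters' processing notes are CASAVA, kallisto and sleuth, with the build mm10 and no versions. The deposited values per sample are a normalised signal, TPM divided by a size factor, and the column sums run from 934563 to 1055498. The authors' deposited p-values and q-values test transcripts, their deposited mean is a natural log (ln) of estimated counts, and their deposited fold change is a log2 ratio. Estimated reads are the exponential of that mean minus 0.5. Read totals are not given, so no counting interval is given.

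Of 113991 lines, 113193 distinct transcripts were kept, since 584 were repeated with equal values. The 97 without a gene, 0.031% of abundance, were left out. Gene sums were tested with limma 3.58.1 (trend) in R 4.3.3 on log2(value + 0.5), a scale that understates changes of low genes, two-sided, with Benjamini-Hochberg adjustment at 0.05 over all genes or transcripts tested. The plan named a count test for counts and limma for a normalised abundance, and limma was used because the table holds no counts. Ratios were compared by exact permutation and correlations by 100000 resamples, with p adjusted over the 14 relations (scipy 1.17.1, Python 3.11.15). The fit was tested on simulated data. Positions are from GENCODE M21 (GRCm38), and principal transcripts are those of the APPRIS tags in the deposited table.

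Per-library values are given for the top 3 genes of the 3 main classes, the top gene of each other class and the 6 smallest p. In each pathway list the genes named are the most abundant and the 3 with the smallest p. Any other collagen could be named as well. The 8 marker relations and the principal-transcript values were chosen after the data were seen, and members and lists were chosen with earlier results of these data known. Alternatives changed the pseudocount, filter, scaling, weights, replicate block and libraries used.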

Additional observations from a re-analysis of the deposited data

Results flagged for a closer look

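Over 50 quantities in each genotype, 5 of 100 groups had 1 library far outside the others by Dixon's criterion, and chance gives about 5 (1 in 20). Col11a1 stood at 4.25 normalised TPM in Tnfr1-/- replicate 2, with the next Tnfr1-/- library at 2.17. Col28a1, a collagen known from peripheral nerve, stood at 4.26 in the same library, with the next at 2.83. By principal transcripts alone it had 2.55 there, against 2.83 in Tnfr1-/- replicate 5, and was not the highest. Summed skeletal muscle markers in Tnfr1-/- replicate 2 were 8118 against 541 to 2610 in the other Tnfr1-/- libraries. Col27a1 stood at 13.8 in Tnfr1-/- replicate 3, with the next at 10.5. Col8a1 stood at 7.71 in Tnfr1-/- replicate 1, with the next at 6.64. The short chain collagens summed to 13.6 in WT replicate 4, with the next WT library at 7.63.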

How the results depend on the processing

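No collagen gene or transcript was called under any alternative run, with each library left out in turn included (0 to 0). Correlations of the deviations of same-numbered libraries were 0.27, -0.01, 0.38, -0.22 and 0.33. Those of differently numbered libraries were not computed, so whether the replicate numbers pair the samples was not tested. With the replicate block 0 collagen genes were called, and the log2 fold change turned sign for Col26a1 (0.045), Pcolce (0.00892) and Itgb1 (-0.00571). Tested collagen genes above 0 numbered 15 of 20 with a filter at 10, 15 of 35 with sample weights and 7 of 35 without WT replicates 1 and 2, and 15 to 32 with 1 library left out. Transcripts above 0 numbered 126 of 186 with no filter and 19 of 26 with a filter at 10, shares near the 47 of 65 reported, but 12 of 63 without WT replicates 1 and 2, and 29 to 52 with 1 library left out. Without WT replicates 1 and 2 the sign turned for Col3a1 (-0.17), Col1a2 (-0.12), Col1a1 (-0.13), Col4a1 (-0.17), Col4a2 (-0.18), Col6a1 (-0.19), Col6a2 (-0.25), Sparc (-0.16), Adamts2 (-0.025), Bmp1 (-0.071), Adamts14 (-0.11), Dcn (-0.21), Itgb1 (-0.087), Ddr2 (-0.053), Hspg2 (-0.19), Lama2 (-0.088), Postn (-0.17) and Tgfb3 (-0.084). The log2 ratio of Col1a1 to Col1a2 was then -0.00775, and that of Col6a1 to Col6a2 was 0.063 (unadjusted exact permutation p 0.0238, adjusted 0.143). With sample weights the sign turned for Col4a1 (-0.046), Col4a2 (-0.064), Col6a1 (-0.035), Col6a2 (-0.085), Sparc (-0.015), Dcn (-0.042), Itgb1 (-0.025), Hspg2 (-0.12) and Postn (-0.039). It also turned with columns rescaled for Col4a5 (0.00481), Col6a3 (0.00486), Col26a1 (0.012) and Pcolce (0.018), with quantile normalization for Col6a3 (0.00548) and Pcolce (0.012), and with a pseudocount of 0.1 for Col26a1 (0.000284). With principal transcripts the log2 ratio of Col4a1 to Col4a2 was -0.054. With 1 library left out the log2 fold change ran from -0.070 to 0.18 for Col4a1, -0.071 to 0.15 for Col4a2, -0.099 to 0.072 for Col4a5, -0.025 to 0.22 for Col6a1, -0.063 to 0.21 for Col6a2, -0.14 to 0.12 for Col6a3, -0.15 to 0.063 for Col16a1, -0.013 to 0.31 for Col8a1, -0.16 to 0.19 for Col26a1, -0.00979 to 0.23 for Sparc, -0.12 to 0.093 for Pcolce, -0.026 to 0.22 for Adamts14, -0.063 to 0.096 for Itgb1, -0.064 to 0.12 for Hspg2 and -0.021 to 0.20 for Postn. The log2 ratio then ran from -0.014 to 0.029 for Col4a1 to Col4a2 and -0.017 to 0.042 for Col5a1 to Col5a2. The r of Col1a1 with epithelial markers was -0.545 without WT replicates 1 and 2. That of Col4a1 with smooth muscle markers was 0.67 without WT replicates 1 and 2, -0.11 without the 2 farthest libraries, and 0.44 to 0.79 with 1 left out, and with endothelial markers 0.54 without WT replicates 1 and 2, where the call was lost. With skeletal muscle markers the r of Col22a1 was 0.50 without the 2 farthest libraries and 0.45 to 0.83 with 1 left out, and that of Col11a1 was -0.45, 0.86 without the log, and -0.13 to 0.70 with 1 left out. The causes were not tested. The class sums had no test. Read totals are not given, so what depth limits is unknown, and the 9 collagens with a mean below 1 were not tested for genotype.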
